A study of Mus musculus with 6 samples.

Results

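The 10 genes described here encode subunits of Polycomb repressive complex 1 (PRC1): the catalytic subunits Rnf2 and Ring1, the canonical subunits Bmi1, Pcgf2, Cbx2, Cbx7 and Phc1, and the variant subunits Pcgf1, Pcgf6 and Rybp. They were chosen by name, and all 10 were found among the 24083 gene symbols of the deposited table. Polyadenylated RNA of mouse embryonic stem cells was sequenced in 3 libraries labelled wild type (WT) and 3 libraries labelled Nanog R153A, a form of the homeodomain pluripotency factor NANOG in which an arginine is replaced by alanine. Both groups were grown in serum and LIF on gelatin without further treatment. The sources used here give neither how the mutant allele was made nor whether libraries stem from different clones or cultures. P-values therefore measure the spread between these libraries, which may be technical. Levels are FPKM (read fragments scaled to gene length and to library size), which allows genes to be compared per length, and the read depth behind them is unknown.

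PRC1 is a ubiquitin ligase that marks histone H2A at lysine 119 and holds developmental genes silent in embryonic stem cells. Every PRC1 holds RNF2 (RING1B) or RING1 (RING1A) paired with 1 PCGF protein, and that PCGF protein sets which other subunits join. Canonical complexes carry PCGF2 or BMI1 with a CBX protein, whose chromodomain reads the H3K27me3 mark of PRC2, and a PHC protein, whose SAM domain polymerises and brings chromatin regions together. Variant complexes carry RYBP or its paralogue YAF2 at the site where canonical complexes hold CBX, do not need H3K27me3 and deposit most of the H2A mark. Among them PRC1.1 holds PCGF1 with the CpG-binding protein KDM2B, and PRC1.6 holds PCGF6 with the DNA-binding pairs of MGA with MAX and E2F6 with TFDP1. PCGF2 and BMI1 can also join RYBP, so the labels canonical and variant are those of the usual assignment.

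The libraries were alike within groups, with FPKM sums between 360152 and 382086. Of 11817 genes tested with limma on log2(FPKM + 1), 59.8% passed an adjusted p of 0.05, 37.5% higher and 22.3% lower in R153A. Of all calls 62.7% were higher in R153A, a share that was 50.7% with median-ratio scaling, 48.1% with quantile normalization and 45.8% with a correction for GC content and length. This last correction moved the median log2 fold change of all genes from 0.07 to -0.034. Nanog mRNA itself was lower in R153A, at 123 ± 5.16 against 253 ± 10.02 FPKM (SD, n = 3), and Wdr5, named in the title of the series, at 42.0 ± 0.982 against 65.3 ± 1.63. All 12 embryonic stem cell markers on the list were expressed at 1 FPKM or more in at least 1 library. Their summed level was 4644 to 5406 FPKM in WT and 2627 to 2744 in R153A. Dppa5a (2575 to 936 FPKM on average) was the largest part of the WT sum and gave most of its fall. Of the 12 markers 9 fell, Lin28a rose by 2.28-fold, and Tdgf1 and Sall4 did not pass. The summed level of 9 trophectoderm markers was 101 to 113 FPKM in WT and 377 to 412 in R153A, but its members split, with 4 up and 2 down among 7 tested. The keratins Krt8 (22.7 to 214 FPKM on average) and Krt18 (18.8 to 143) made up most of the R153A sum, while Tfap2c fell from 55.4 to 19.8. The sum of 9 primitive endoderm markers was 7.98 to 10.1 FPKM in WT and 13.8 to 14.3 in R153A, again with a split: Col4a1 (2.63 to 7.32) and Foxa2 rose, and Sox7 (2.18 to 0.278) and Lama1 (2.50 to 0.529) fell. For 12 fibroblast and feeder markers the sum was 34.2 to 35.4 FPKM in WT and 30.6 to 32.8 in R153A. Vim (26.8 to 19.9) made up most of it and fell, while Col1a1 (1.17 to 2.82) and Col1a2 (0.707 to 1.70) rose. No marker on these lists was at 0 in all 6 libraries. The part of these marker differences in the results below was not tested, and in such bulk RNA a change in the mix of cells and a change in RNA per cell cannot be told apart.

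Of the 10 PRC1 genes, 4 fell in R153A (Rnf2, Pcgf2, Pcgf6 and Rybp), 2 rose (Bmi1 and Cbx7) and 4 did not pass (Ring1, Cbx2, Phc1 and Pcgf1). Against the 59.8% called among all genes tested, 6 of 10 is at the background and is no result about these genes as a group. The changes were small: the called members differed by 1.31-fold to 1.39-fold in mean FPKM, and the median log2 fold change of the 10 was -0.0028, next to 0.071 over all genes tested. The groups did not overlap for 7 members, 3 higher and 4 lower, where 65.0% of all genes tested did not overlap, 39.8% higher and 25.2% lower. By class, both called variant members fell, the called catalytic member fell, and of the 3 called canonical members 2 rose and 1 fell. The 4 members that fell and Cbx7 kept their calls in all 17 alternative analyses.

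**Figure D1:**
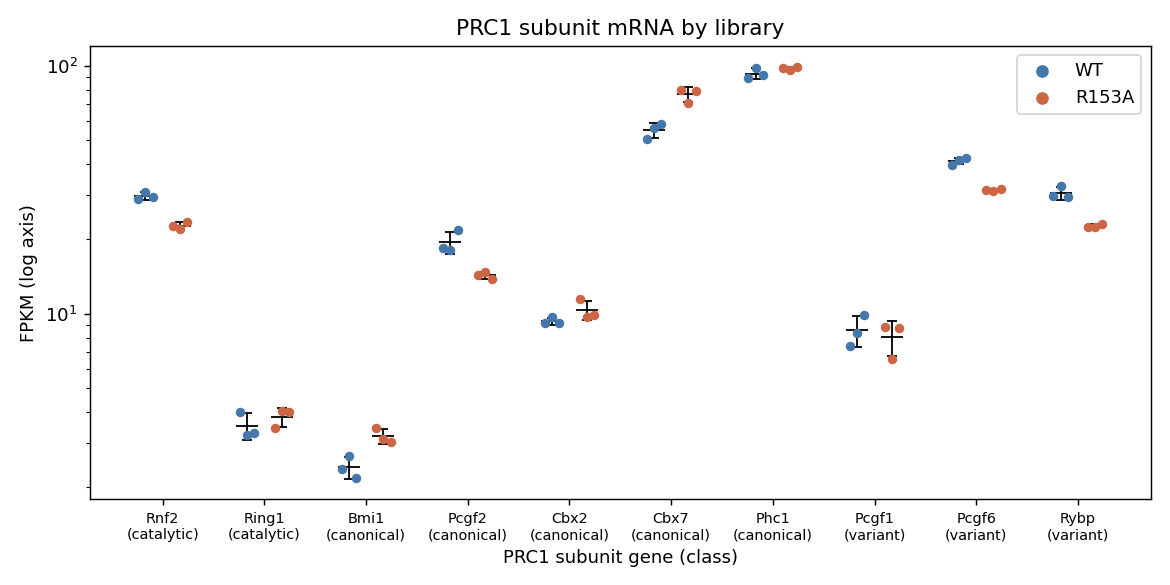
FPKM of the 10 PRC1 genes on a log axis, 1 point per library, with the mean and SD of each group of 3 as bars. Rnf2, Pcgf2, Pcgf6 and Rybp lie lower in R153A and Bmi1 and Cbx7 higher, while levels span from Bmi1 at 2.40 FPKM in WT to Phc1 at 92.9.

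Levels spread widely among the subunits. In WT the order of mean FPKM was Phc1 (92.9), Cbx7 (55.0), Pcgf6 (41.3), Rybp (30.6), Rnf2 (29.8), Pcgf2 (19.4), Cbx2 (9.34), Pcgf1 (8.58), Ring1 (3.53) and Bmi1 (2.40). The neighbours Rybp and Rnf2 overlapped over libraries, as did Cbx2 and Pcgf1, and all other neighbours in this order were apart. In R153A the order was the same except that Rnf2 (22.6) and Rybp (22.5), which again overlapped, changed places. In R153A Cbx2 and Pcgf1 were apart, and Ring1, with a lowest value of 3.46 FPKM, only just stayed above Bmi1, with a highest value of 3.45. Phc1 lay at percentile 95.1 of the mean level of all genes tested and Bmi1 at 20.5.

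Of the catalytic pair Rnf2 fell and Ring1 did not pass. Rnf2, the main H2A ubiquitin ligase of embryonic stem cells, stood at 29.0, 31.0 and 29.5 FPKM in the WT libraries and at 22.5, 21.9 and 23.4 in R153A. All R153A libraries lay below all WT libraries. The mean FPKM was 24.2% lower, and the log2 fold change, taken on log2(FPKM + 1), was estimated at -0.38 (SE 0.0518, limma adjusted p = 7.3e-05). Its paralogue Ring1 stood at 4.03, 3.24 and 3.32 FPKM in WT, against 3.46, 4.06 and 4.01 in R153A. These overlapped, and the log2 fold change of 0.098 had a 95% interval from -0.10 to 0.30 (limma adjusted p = 0.369). Ring1 was below 0 with quantile normalization (-0.069) and with the GC and length correction (-0.16), so no direction can be given. Rnf2 made up 87.8%, 90.5% and 89.9% of the summed FPKM of the pair in WT and 86.7%, 84.4% and 85.4% in R153A, so it remained the main transcript although every R153A share was lower. Rnf2 overlaps Trmt1l on the opposite strand in the GENCODE annotation, and the sources do not say whether counting used strand. Without strand, reads from a stretch that such a pair shares cannot be told apart. The overlap is that of whole genes, and whether it covers exons was not looked at. Trmt1l moved the other way, from 9.44 ± 0.678 to 11.6 ± 0.495 FPKM.

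Among the PCGF genes, Pcgf2 and Pcgf6 fell and Bmi1 rose. Pcgf2, which encodes the canonical subunit MEL18, stood at 18.4, 18.1 and 21.7 FPKM in WT, against 14.4, 14.7 and 13.8 in R153A. The groups were apart, and the log2 fold change was estimated at -0.41 (SE 0.0714, limma adjusted p = 0.00046). Bmi1, the other canonical PCGF, stood at 2.37, 2.66 and 2.18 FPKM in WT, against 3.45, 3.12 and 3.04 in R153A. It was thus the lowest of the 10 in both groups and higher in every R153A library, and its log2 fold change was estimated at 0.31 (SE 0.0821, limma adjusted p = 0.00772), a call that ended under quantile normalization (adjusted p = 0.244). Between the canonical PCGF genes, the FPKM ratio of Pcgf2 to Bmi1 was 7.76, 6.80 and 9.97 in WT and 4.16, 4.70 and 4.55 in R153A. Pcgf2 thus remained the more abundant transcript of the canonical pair in all 6 libraries.

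Pcgf6, the PCGF of PRC1.6, stood at 39.8, 41.7 and 42.3 FPKM in WT, against 31.6, 31.2 and 31.9 in R153A. The spread within each group was small and the groups were far apart, and the log2 fold change was estimated at -0.38 (SE 0.0473, limma adjusted p = 4.2e-05). Pcgf1, the PCGF of PRC1.1, stood at 7.43, 8.38 and 9.92 FPKM in WT, against 8.87, 6.55 and 8.79 in R153A. It varied most within groups among the 10, and its log2 fold change of -0.081 had a 95% interval from -0.34 to 0.18 (limma adjusted p = 0.572), with the sign turned without WT replicate 3 (0.018) or R153A replicate 2 (0.046). Pcgf3 and Pcgf5, of the PRC1.3 and PRC1.5 complexes, both rose, from 13.2 ± 0.719 to 15.2 ± 0.160 FPKM (limma adjusted p = 0.0129) and from 10.01 ± 0.387 to 12.4 ± 0.346 (0.00145). The Pcgf3 call ended under median-ratio scaling (adjusted p = 0.0893) and quantile normalization (0.0747). Within the summed FPKM of the 6 PCGF genes, Pcgf6 had the largest share in all libraries, at 43.6 ± 0.730% in WT and 37.3 ± 0.298% in R153A. The shares of Pcgf3 and Pcgf5 were 13.9 ± 1.22% and 10.6 ± 0.372% in WT and 17.9 ± 0.382% and 14.6 ± 0.568% in R153A, and neither overlapped between the groups.

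Of the CBX genes, Cbx7 and Cbx6 rose and Cbx2 did not pass. Cbx7, the main H3K27me3 reader of PRC1 in embryonic stem cells, stood at 50.7, 56.1 and 58.2 FPKM in WT, against 79.8, 70.7 and 79.2 in R153A. All R153A libraries were higher, and the log2 fold change was estimated at 0.47 (SE 0.0649, limma adjusted p = 8.6e-05). Cbx2, whose protein compacts chromatin, stood at 9.19, 9.68 and 9.14 FPKM in WT, against 11.4, 9.70 and 9.90 in R153A. The groups were narrowly apart, but the log2 fold change of 0.13 (95% interval -0.025 to 0.29) did not pass (limma adjusted p = 0.134), and it was -0.13 after the GC and length correction. Cbx6 rose from 11.3 ± 0.947 to 14.5 ± 0.272 FPKM (limma adjusted p = 0.00107), a call that ended after that correction (0.115). Cbx8 stayed too low to be tested, at 0.358 ± 0.124 and 0.979 ± 0.105 FPKM in WT and R153A. The summed FPKM of Cbx2, Cbx6, Cbx7 and Cbx8 was 70.9, 78.5 and 78.7 in WT and 107, 95.5 and 105 in R153A. Cbx7 made up 71.6%, 71.4% and 73.9% of it in WT and 74.7%, 74.0% and 75.5% in R153A, shares that were only just apart. Cbx7 overlaps Apobec3 on the opposite strand in the GENCODE annotation. Apobec3 went the other way, from 46.5 ± 2.07 to 18.8 ± 1.16 FPKM.

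Of the PHC genes, which encode the polymerising subunits, the abundant member did not pass and a minor one rose. Phc1 stood at 88.9, 97.8 and 91.9 FPKM in WT, against 98.1, 96.4 and 98.9 in R153A. The groups overlapped, with a log2 fold change of 0.075 and a 95% interval from -0.032 to 0.18 (limma adjusted p = 0.203). Its sign depended on the scaling: it was -0.008 under median-ratio scaling and -0.13 after the GC and length correction, where it passed as lower (adjusted p = 0.00966), and it passed as higher without WT replicate 2 (0.0406). Phc2 stood at 5.33, 6.47 and 5.50 FPKM in WT, against 16.5, 15.5 and 15.0 in R153A, a mean higher by 2.72-fold, and its log2 fold change was estimated at 1.303 (SE 0.0752, limma adjusted p = 8.4e-08). It had the largest change in size of the 39 PRC1 genes tested. Phc3 stood at 2.61 ± 0.286 and 2.68 ± 0.144 FPKM. Phc1 still made up most of the family, at 91.7 ± 0.132% of its summed FPKM in WT and 84.2 ± 0.502% in R153A, while the share of Phc2 was 5.69 ± 0.328% and 13.5 ± 0.611%.

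Rybp and Yaf2, the alternative subunits of variant PRC1, changed in opposite directions. Rybp stood at 29.7, 32.7 and 29.4 FPKM in WT, against 22.3, 22.3 and 23.0 in R153A. Every R153A library was lower, and the log2 fold change was estimated at -0.43 (SE 0.0548, limma adjusted p = 5.1e-05). Yaf2 stood at 2.82, 3.86 and 4.07 FPKM in WT, against 7.30, 7.53 and 7.64 in R153A, a mean higher by 2.09-fold, and its log2 fold change was estimated at 0.90 (SE 0.100, limma adjusted p = 1.6e-05). The FPKM ratio of Rybp to Yaf2 was 10.5, 8.46 and 7.24 in the WT libraries and 3.05, 2.96 and 3.00 in R153A. Rybp remained the more abundant of the pair, and the summed FPKM of both was 34.2 ± 2.08 in WT and 30.0 ± 0.532 in R153A. Rybp has a named pseudogene, Rybp-ps, so reads shared with that copy may be split in the values of Rybp. It also overlaps a processed pseudogene on the opposite strand, and whether that is a copy of Rybp was not looked at.

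**Figure D2:**
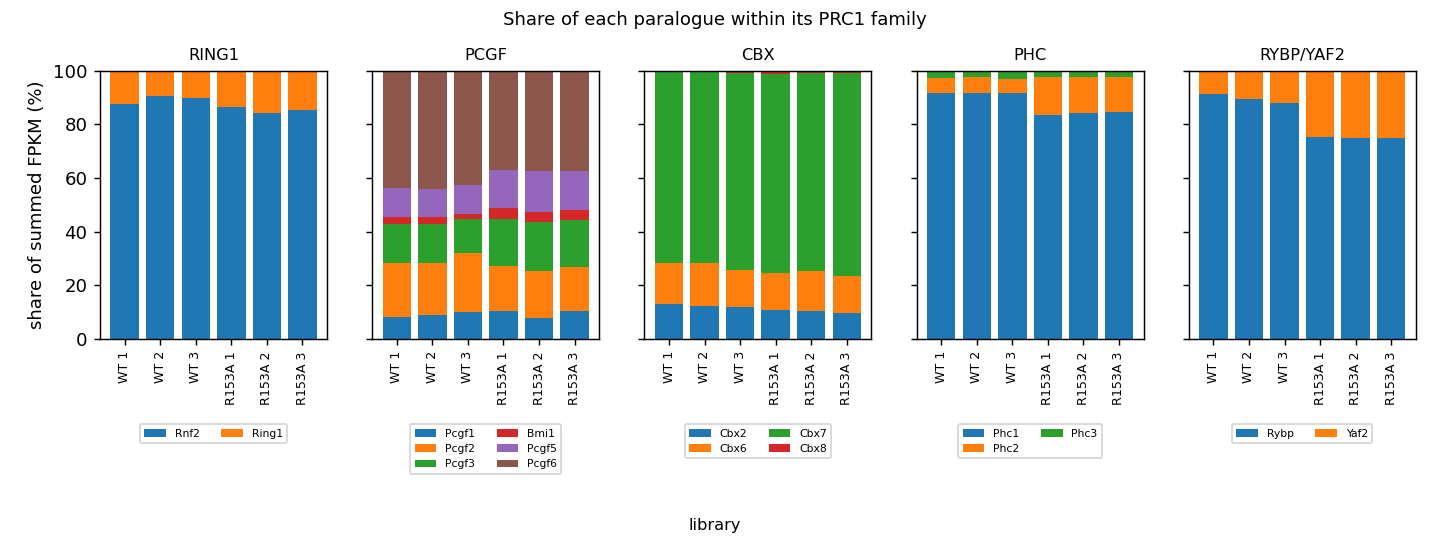
Stacked bars give each paralogue's share, in percent, of the summed FPKM of its family, 1 bar per library, for the RING1, PCGF, CBX, PHC and RYBP/YAF2 families. Rybp goes from 89.5% on average in WT to 75.0% in R153A and Phc1 from 91.7% to 84.2%, while Cbx7 is at 72.3% and 74.7%.

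Canonical and variant members were then set side by side within each library. The mean log2(FPKM + 1) of the 5 canonical members was 4.31, 4.40 and 4.39 in WT and 4.54, 4.44 and 4.46 in R153A. That of the 3 variant members was 4.46, 4.57 and 4.60 in WT and 4.29, 4.16 and 4.31 in R153A. Canonical minus variant was thus -0.14, -0.17 and -0.22 in WT and 0.25, 0.28 and 0.16 in R153A, a mean difference of 0.41 between the groups, and 0.31 after the GC and length correction. Among the other subunits no such split was seen, with a median log2 fold change of 0.028 both for the 5 canonical and for the 24 variant genes tested. No test is given, since the members were chosen with earlier results known, and with 3 variant genes the value rests on Pcgf6 and Rybp. The split does not hold gene by gene: the canonical Pcgf2 fell about as much as the variant Rybp, and the variant paralogues Yaf2, Pcgf3 and Pcgf5 rose.

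The promoters of 5 of the 6 called members are shown, so that those of the genes that fell (Rnf2, Pcgf2 and Pcgf6) can be set beside those of the genes that rose (Cbx7 and Bmi1). RefSeq promoter windows (GRCm38.p6, a later build than the mm9 of the submitters' processing notes) matched 7 of the 10 members, not Cbx2, Pcgf1 or Rybp. The 250 bases before each start are given 5′ to 3′ on the gene's strand, with GC boxes (GGGCGG on either strand) in capitals.
Rnf2, chr1:151500992-151501241, minus strand: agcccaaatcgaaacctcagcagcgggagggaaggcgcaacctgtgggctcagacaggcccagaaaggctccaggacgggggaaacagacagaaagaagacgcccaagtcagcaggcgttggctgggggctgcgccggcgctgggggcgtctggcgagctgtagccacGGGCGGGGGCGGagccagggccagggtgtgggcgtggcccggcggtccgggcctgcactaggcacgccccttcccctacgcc
Pcgf2, chr11:97699649-97699898, minus strand: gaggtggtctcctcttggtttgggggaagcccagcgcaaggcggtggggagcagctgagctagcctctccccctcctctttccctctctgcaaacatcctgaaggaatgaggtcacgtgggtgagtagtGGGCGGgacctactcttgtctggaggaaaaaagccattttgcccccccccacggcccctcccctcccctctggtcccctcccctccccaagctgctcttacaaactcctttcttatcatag
Pcgf6, chr19:47050907-47051156, minus strand: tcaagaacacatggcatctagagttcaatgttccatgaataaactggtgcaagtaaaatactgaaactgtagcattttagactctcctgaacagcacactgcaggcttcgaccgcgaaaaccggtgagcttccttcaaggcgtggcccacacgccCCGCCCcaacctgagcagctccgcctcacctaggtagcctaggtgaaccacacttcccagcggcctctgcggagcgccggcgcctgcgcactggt
Cbx7, chr15:79932647-79932896, minus strand: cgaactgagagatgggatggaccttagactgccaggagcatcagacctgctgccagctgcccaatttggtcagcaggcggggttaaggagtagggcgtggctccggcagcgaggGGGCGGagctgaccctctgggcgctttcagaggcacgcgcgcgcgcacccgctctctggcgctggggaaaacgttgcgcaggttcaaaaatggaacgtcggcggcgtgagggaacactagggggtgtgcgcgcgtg
Bmi1, chr2:18676768-18677017, plus strand: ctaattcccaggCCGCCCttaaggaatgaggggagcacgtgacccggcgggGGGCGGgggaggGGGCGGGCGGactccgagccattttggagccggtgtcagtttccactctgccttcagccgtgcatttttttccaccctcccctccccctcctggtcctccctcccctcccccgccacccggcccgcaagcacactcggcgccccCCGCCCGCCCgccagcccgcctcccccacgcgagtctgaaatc
A GC box was present in 6 of the 7 windows, Phc1 being without one, and in 32.7% of all 32851 promoter windows of the same length. The windows held between 5 (Pcgf2) and 30 (Ring1) CpG dinucleotides, where the median of all windows was 6. The octamer ATGCAAAT, bound by OCT4, was in none of the 7 and in 1.6% of all windows, and the E-box CACGTG was in those of Bmi1 and Pcgf2 and in 6.02% of all. GC boxes thus stood in windows of genes that fell (Rnf2, Pcgf2 and Pcgf6), rose (Cbx7 and Bmi1) and did not pass (Ring1), and such matches are a description of the letters only.

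The other subunits were read from a list of 30 genes, of which 29 were tested. Among them 9 rose, 5 fell and 15 did not pass, so 48.3% were called, next to 59.8% of all genes tested, with a median log2 fold change of 0.028. The balance of directions depended on the scaling: 8 rose and 10 fell under median-ratio scaling, and 8 rose and 9 fell both with quantile normalization and with the GC and length correction. By complex, 33.3% of PRC1.1 genes, 50% of PRC1.6 genes and 44.4% of PRC1.3 and PRC1.5 genes were called, all below the 59.8%. Of the 10 canonical genes tested, members among them, 60% were called. The numbers called are thus no result about a complex. Over all genes tested 37.5% rose and 22.3% fell. Of the 6 PRC1.1 genes 2 rose, Kdm2b and Bcor, and none fell. Kdm2b, which binds unmethylated CpG islands, went from 17.7 ± 0.987 to 25.6 ± 0.896 FPKM (limma adjusted p = 1.7e-05) and the corepressor Bcor from 8.29 ± 1.1 to 12.2 ± 0.741 (0.00037). The log2 fold change of Bcor was 0.51, and 0.26 with the GC and length correction. Pcgf1, Bcorl1, Skp1a and Usp7 did not pass. In PRC1.6, 4 of 10 genes fell, 1 rose and 5 did not pass. Mga, the scaffold that pairs with MAX at E-boxes, fell from 19.2 ± 1.36 to 15.1 ± 0.431 FPKM (limma adjusted p = 0.00085), as did Max and Wdr5, which is also a subunit of COMPASS methyltransferases. The Max call (adjusted p = 0.030) ended in 5 alternatives, such as without R153A replicate 2 (0.118). E2f6, a repressive E2F, went against them, at 9.74, 11.4 and 11.2 FPKM in WT and 17.03, 15.1 and 17.2 in R153A (log2 fold change 0.57, SE 0.0733, limma adjusted p = 5.0e-05). In PRC1.3 and PRC1.5, 3 of 9 genes rose, Pcgf3, Pcgf5 and Auts2, while Csnk2a1, a catalytic subunit of casein kinase 2, fell from 63.3 ± 6.65 to 51.0 ± 3.73 FPKM. Auts2, which joins that kinase to the complex, went from 1.94 ± 0.182 to 3.07 ± 0.437 FPKM (limma adjusted p = 0.00144), a log2 fold change of 0.47 that was 0.26 with quantile normalization and 0.30 with the GC and length correction. Scmh1, a SAM-domain protein found with canonical PRC1, fell from 9.47 ± 0.415 to 6.28 ± 0.176 FPKM (limma adjusted p = 3.0e-05).

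**Figure D3:**
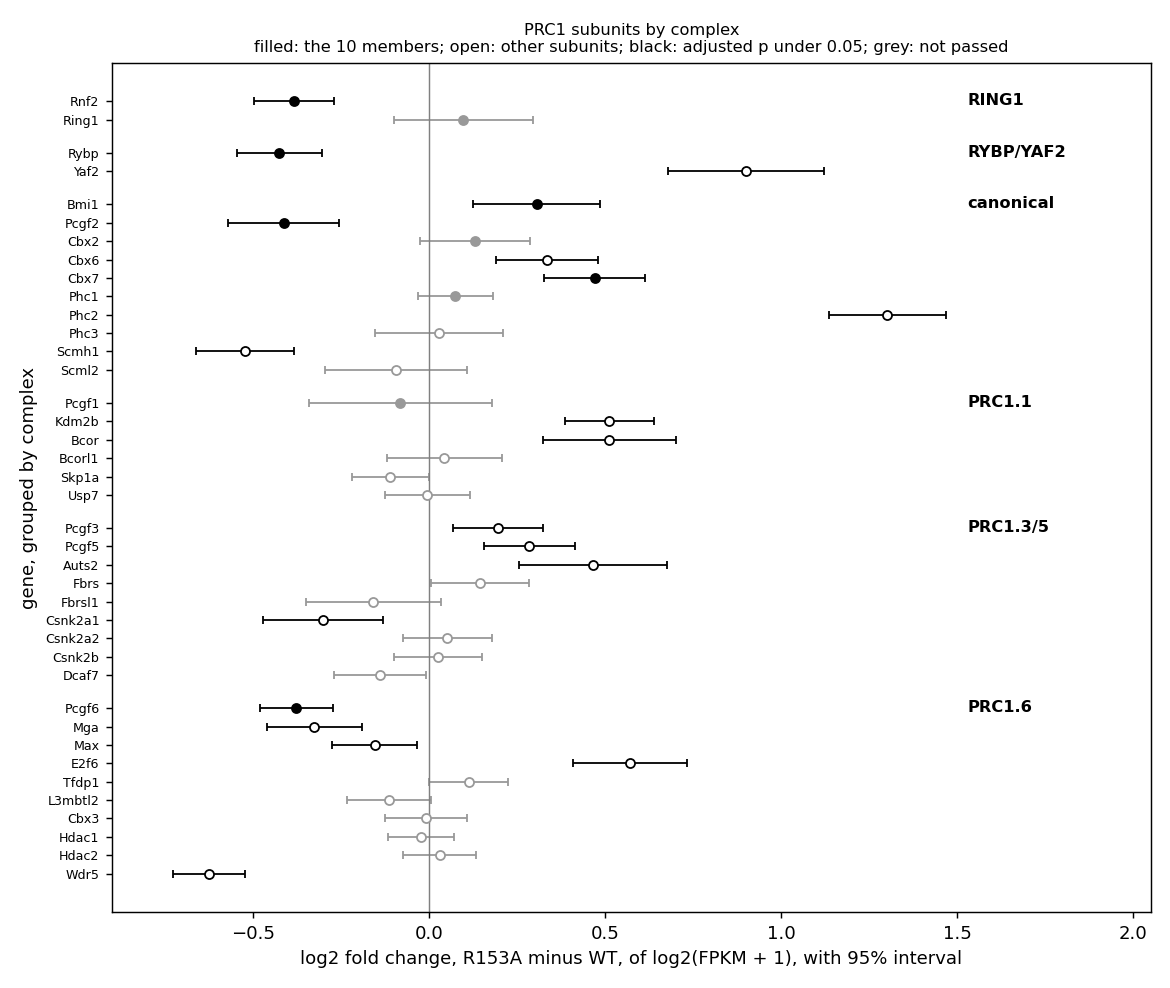
Log2 fold change of log2(FPKM + 1), R153A minus WT, with its 95% interval for 39 tested PRC1 genes grouped by complex. Filled points are the 10 members, open points the other subunits, black points passed an adjusted p of 0.05 and grey points did not. Phc2 at 1.303 and Yaf2 at 0.90 lie farthest right, Wdr5 at -0.63 farthest left.

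Enzymes that remove ubiquitin from H2A oppose PRC1. Of 9 such genes or their cofactors, 8 were tested, 3 rose, none fell and 5 did not pass. The share that rose, 37.5%, is that of all genes tested and is no result about these enzymes. Bap1, the H2A lysine 119 deubiquitinase, went from 24.4 ± 1.64 to 28.6 ± 1.48 FPKM (limma adjusted p = 0.00899) and its cofactor Asxl2 from 6.10 ± 0.669 to 7.59 ± 0.331 (0.0108). Both calls ended after the GC and length correction (adjusted p = 0.0643 and 0.0843), and that of Asxl2 also under quantile normalization (0.0688). Usp22, the deubiquitinase of the SAGA complex, went from 27.4 ± 2.11 to 33.8 ± 0.856 FPKM (limma adjusted p = 0.0013). Under median-ratio scaling 3 rose and 2 fell.

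PRC1.6 is known for silencing germline genes, many with E-boxes or E2F sites. On a list of 18 such genes, 16 were tested, of which 9 fell, 2 rose and 5 did not pass, with a median log2 fold change of -0.42 next to 0.071 over all genes. Over all genes tested 22.3% fell, 37.5% rose and 59.8% were called in either direction. The filter on low values was passed through WT alone by 2 of them, and without these 7 of 14 fell and 2 rose. Among these 7, Tex11 stood at 2.69, 2.48 and 2.12 FPKM in WT, against 0.419, 1.24 and 0.460 in R153A. It too needed its WT libraries to pass, so the 14 are not free of such selection. Tuba3a, a testis tubulin gene, stood at 11.5, 12.2 and 13.2 FPKM in WT, against 2.83, 2.41 and 2.77 in R153A (log2 fold change -1.86, SE 0.0765, limma adjusted p = 6.8e-09). The meiotic cohesin genes Stag3 and Smc1b stood at 21.1 ± 1.11 and 14.5 ± 0.0704 FPKM in WT, against 6.75 ± 0.208 and 4.22 ± 0.126 in R153A, log2 fold changes of -1.51 and -1.58 with limma adjusted p = 5.8e-09 and 3.6e-09. Dazl, a germ cell RNA-binding protein gene, fell from 2.45 ± 0.231 to 0.571 ± 0.123 FPKM and is 1 of the 2 that passed the filter through WT alone. The 2 that rose were Tdrkh, of the piRNA pathway, from 1.71 ± 0.183 to 2.58 ± 0.280 FPKM, and Sycp3, of the synaptonemal complex, from 10.6 ± 1.07 to 12.9 ± 0.401, and both calls ended under quantile normalization (adjusted p = 0.0925 and 0.0507). Pcgf6, Mga, Max and Wdr5, all of PRC1.6, fell, and E2f6 rose, in the same libraries in which most called genes of this list fell. Whether these changes are linked was not tested.

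The sequences around motif matches in the 3 germline genes that fell most on the log2(FPKM + 1) scale are shown, from the same RefSeq windows (GRCm38.p6), with the E2F motif TTCCCGC (Smc1b, Tuba3a) or the E-box CACGTG (Stag3) in capitals. By the ratio of mean FPKM Dazl (76.7% lower) fell more than Smc1b and Stag3, and its log2 fold change with a pseudocount of 0.1 (-1.94) was also below theirs (-1.76 and -1.63).
Smc1b, chr15:85131972-85132032, minus strand: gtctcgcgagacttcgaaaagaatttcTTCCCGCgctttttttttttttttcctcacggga
Tuba3a, chr6:125286168-125286228, minus strand: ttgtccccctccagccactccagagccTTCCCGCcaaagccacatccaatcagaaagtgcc
Stag3, chr5:138280312-138280371, plus strand: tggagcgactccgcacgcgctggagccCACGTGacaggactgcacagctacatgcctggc
Searched on both strands in the 250 bases before each start, the E-box was found for 11 of the 17 list genes with a window and in 6.02% of all windows, and the E2F motif for 5 of 17 and in 3.82% of all. Some genes have several windows, and a gene was counted once if any held a match. Among tested genes, the E-box stood in windows of genes that fell (Stag3, Stk31, Hormad1 and Mov10l1) and in that of Sycp3, which rose. It was also in those of Ddx4, Mael, Taf7l, Sycp1 and Slc25a31, which did not pass. The E2F motif was found for Smc1b, Tuba3a and Hormad1, which fell, Sycp3, which rose, and Ddx4. The window of Dazl held neither motif, and such matches are a description of the letters only.

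**Figure D4:**
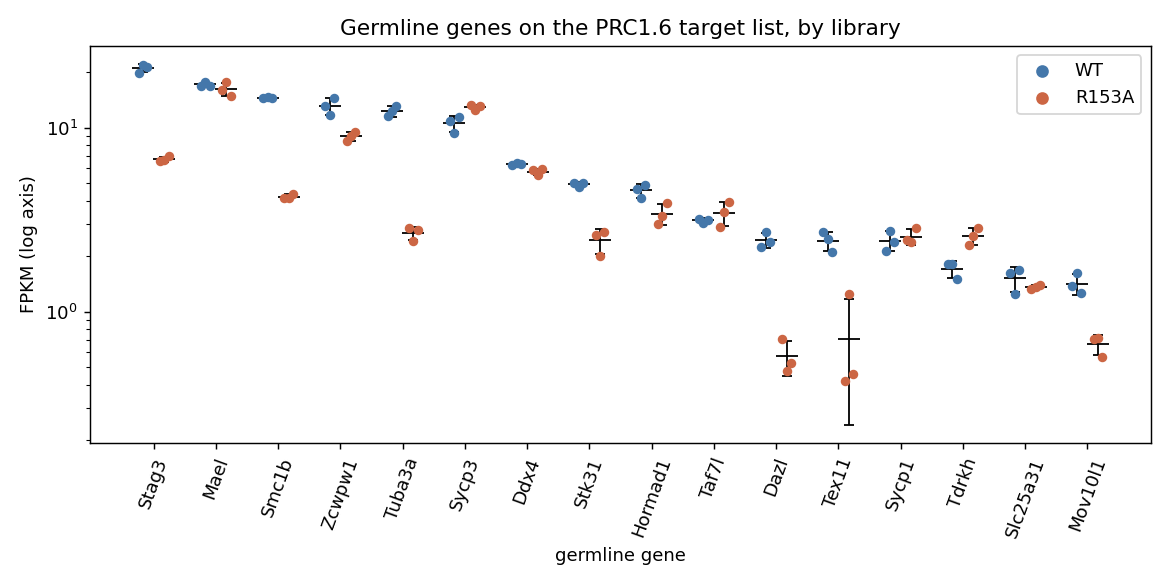
FPKM of the 16 tested genes of the germline list on a log axis, 1 point per library, with the mean and SD of each group of 3 as bars, in order of their WT mean. Stag3, Smc1b and Tuba3a lie at 21.1, 14.5 and 12.3 FPKM on average in WT and at 6.75, 4.22 and 2.67 in R153A, and Tdrkh and Sycp3 lie higher in R153A.

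Developmental regulators silenced by Polycomb were mostly too low to be tested, with 15 of 51 listed genes passing the filter. Here 9 rose, 3 fell and 3 did not pass, but 7 passed the filter through R153A alone and 1 through WT alone, so that their change decided that they were tested. Among the 7 others, 2 rose, 2 fell and 3 did not pass, which is close to the 59.8% called over all genes tested. Of these 2 that rose, Gata2 stood at 0.973, 1.14 and 0.980 FPKM in WT, against 2.20, 1.77 and 2.07 in R153A. It too needed its R153A libraries to pass the filter, so the 7 others are not free of such selection. The largest rises, all in genes that passed through R153A alone, were those of T, the streak factor brachyury, to 4.19 ± 0.373 FPKM, of Foxa2 to 3.40 ± 0.341, of Cdx2 to 2.78 ± 0.392 and of Msx1 to 2.01 ± 0.172, from 0.117 to 0.176 FPKM on average in WT. The 3 that fell were En2 (which passed through WT alone), Eomes and Cdkn2a. Cdkn2a, the tumour suppressor locus that BMI1 is best known for repressing, stood at 17.6, 18.1 and 21.0 FPKM in WT, against 17.01, 15.5 and 16.9 in R153A (log2 fold change -0.18, SE 0.0718, limma adjusted p = 0.0467). That call ended in 7 alternatives, among them without WT replicate 3 (adjusted p = 0.177), and the Eomes call in 3, among them without WT replicate 2 (0.0737).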

How the data were processed

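The authors deposited 1 table of FPKM values per gene symbol for 3 WT and 3 R153A libraries, and each column was matched to its sample by the library name in the labels. The mm9 build and the tools edgeR 3.26.8, HTSeq 0.11.2, SAMtools 1.9 and Bowtie2 2.3.4.3 are named, per the submitters' processing notes, with no role or order. The sources used here do not give the tool behind the FPKM values, the annotation or the use of strand. Counts and depth are unknown, so no count test and no counting intervals were computed, and an FPKM of 0 may be a failed estimate.

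Values were used as log2(FPKM + 1), which understates the change of a low gene. The 11817 genes that reached 1 FPKM in 3 or more of the 6 libraries were tested two-sided in R 4.3.3 by limma 3.58.1 with its trend option. P-values were adjusted by Benjamini-Hochberg over these genes, with a threshold of 0.05. The fit was tested on simulated data. Intervals are unadjusted 95% limma intervals, and ± is the SD over 3 libraries. Folds are ratios of mean FPKM. The named genes were the 10 members, their paralogues, Nanog and Wdr5, and up to 4 called genes per direction and list. Bcorl1, Skp1a, Usp7, Max, Trmt1l, Apobec3 and the cell type markers were named after their values were seen. Members and lists were chosen with earlier results of these data known. Some genes first listed are not reported here and were left out of list counts and family sums. GENCODE M21 transcripts gave GC content and length for 95.8% of tested genes by symbol, and motifs were searched in RefSeq promoter windows. The alternatives were other pseudocounts, filters and scalings, limma with robust moderation or with no trend, the replicate block, leaving out each library, and the GC and length correction, which was chosen after seeing the data. Python 3.11.15 with matplotlib 3.10.9 drew the figures.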

Additional observations from a re-analysis of the deposited data

How the results depend on the processing

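The depth behind the values is unknown, which limits the reading of genes near 1 FPKM. Of the called members, Rnf2, Pcgf2, Pcgf6, Rybp and Cbx7 kept direction and call in all 17 alternatives, and Bmi1 in 15 of the 16 that tested it. The number of members called was 5 with a filter of 5 FPKM, which tested fewer genes, and with quantile normalization, and 7 with the GC and length correction. Leaving out single libraries gave 6 to 7 members called, 6282 to 6909 of all genes, 13 to 15 other PRC1 subunits, and a canonical minus variant difference of 0.381 to 0.444, which was 0.313 after the GC and length correction. Values not passing the test turned sign for Ring1 (-0.069 with quantile normalization, -0.162 with the GC and length correction), Cbx2 (-0.134 after that correction), Phc1 (-0.008 under median-ratio scaling, -0.126 after the GC and length correction) and Pcgf1 (0.018 without WT replicate 3, 0.046 without R153A replicate 2, and between -0.169 and 0.046 over the single libraries left out); the cause was not tested. Calls among H2A deubiquitinases went from 3 to 5 under median-ratio scaling. With a filter of 5 FPKM, 5 germline genes of 7 tested and 2 developmental targets of 2 tested were called, next to 4860 of 8071 genes in all. With no filter 24 developmental targets of 49 tested were called, next to 8265 of 20504 genes in all, as the number of genes tested changed.

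The labels number the libraries 1 to 3 in both groups. Deviations of same-numbered libraries from their group means correlated by -0.0487 to 0.060, and 2 of 6 libraries correlated best with their own number. No effect shared by number was seen, but such correlations cannot tell whether same-numbered libraries were prepared together. With the replicate block 6876 genes were called in all, 6 members, 14 other PRC1 subunits, 3 H2A deubiquitinases, 11 germline genes and 12 developmental targets.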
